A study of Mus musculus with 3 samples.

Results

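The data described here are the RNA levels of 9 mouse genes tied to the last steps of T cell development in the thymus, namely the sphingosine-1-phosphate receptor genes S1pr1 and S1pr4, the transcription factor genes Klf2, Foxo1 and Foxo3, and the surface molecule genes Cd69, Cd24a, Cd5 and Cd6. The 9 genes were picked by symbol, of 52636 gene identifiers counted. All 9 were found once among the counted genes and all passed the filter on low counts, which left 16548 genes tested. The samples are 3 libraries of normal thymus from C57BL/6 mice that carry floxed alleles of the repressor gene Cic on both chromosomes and had received tamoxifen. They come from control littermates in a study of lymphomas that lack Cic, which are not analysed here. Both the floxed alleles and the tamoxifen are shared by all 3 libraries, called thymus 1, 2 and 3 after the labels' replicate numbers. The labels name no Cre driver for this group and give neither age nor animal per library.

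Libraries held 38265510 to 44932368 reads, and 66.4% to 69.1% of them fell in genes with the strand taken into account. Cic, the gene targeted in the study, was read at 259, 271 and 262 CPM in thymus 1, 2 and 3. CPM are read counts scaled to the depth of their library, with the TMM method as the adjustment between libraries, and errors are SDs over the 3 libraries. Markers of double-positive thymocytes, the main cell of the organ, were abundant, with 9 of 9 tested and a median of 1232 CPM, led by Rag1 (4075 ± 169) and Cd8a (1829.7 ± 38.6). The samples are whole tissue, so fewer cells of a type and less RNA per cell cannot be told apart.

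Thymocytes that pass selection stop dividing, change their surface and leave the organ. Mature cells turn on S1pr1, a receptor that draws them toward the higher sphingosine-1-phosphate of blood. Its gene is activated by KLF2, and KLF2 in turn lies under FOXO1, a factor held out of the nucleus by AKT. CD69 appears after T cell receptor signalling, binds S1PR1 and pulls it off the surface, so that CD69 holds cells in the thymus. CD24, a small lipid-anchored glycoprotein, is high on immature thymocytes and low on mature ones. CD5 and CD6 are related scavenger-receptor proteins that adjust T cell receptor signals, and CD5 follows the strength of that signal.

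A few sequences bear on how the counts can be read. Cd24a has the smallest coding sequence of the 9, 76 codons, in a longest coding transcript of 1816 bases, so 12.6% of that transcript is coding. It is shown because 69 of its 2510 50-base stretches (2.75%) also occur in transcripts of Gm6212, annotated as a processed pseudogene, and all 69 lie within it. Capitals mark the 167 bases covered by shared stretches, and the lower-case bases are covered by none. A read that lies wholly within a shared stretch matches both places, and reads with several places were set apart in the deposited files.
Cd24a coding sequence: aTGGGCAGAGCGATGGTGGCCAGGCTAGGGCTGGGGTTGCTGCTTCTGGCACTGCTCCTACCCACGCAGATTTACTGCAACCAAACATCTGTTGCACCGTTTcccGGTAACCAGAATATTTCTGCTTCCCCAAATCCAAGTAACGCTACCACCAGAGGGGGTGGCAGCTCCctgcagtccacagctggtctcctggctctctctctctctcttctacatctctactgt

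The coding sequences of the related genes have only short runs of identical bases in common. The longest run of bases that the coding sequences of Foxo1 and Foxo3 have in common is 38 bases long, against 13 bases for S1pr1 and S1pr4 and 10 bases for Cd5 and Cd6. It is shown because it is shorter than a 50-base stretch, and no 50-base stretch of Foxo3 occurs in a transcript of another gene.
Foxo1 and Foxo3 common run: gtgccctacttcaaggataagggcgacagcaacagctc
No 50-base stretch of S1pr1, Klf2, Cd5 or Cd6 occurred in another gene's transcripts either, and the shares on the same strand for S1pr4, Cd69 and Foxo1 were 1.24%, 0.0916% and 0.0696%. On the opposite strand they were 0.599%, 0.122% and 6.77%. Foxo1 differs from the rest in having an antisense neighbour, Gm20402, whose exons overlap its own over 674 bases on the opposite strand and which had 1, 0 and 1 reads in thymus 1, 2 and 3. Counted without strand, Foxo1 had 95.1% of the reads it had with strand, and the other 8 genes had between 100.04% and 100.8%.

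The receptor genes come first by role. S1pr1 (chromosome 3, 115710433 to 115715072, minus strand, GRCm38) is a gene of 2 exons and 1 annotated transcript. It had 993, 1095 and 725 reads, or 32.6, 37.3 and 29.4 CPM in thymus 1, 2 and 3 (mean 33.1 ± 3.98 CPM). Thymus 2 was highest and thymus 3 lowest. The related receptor gene S1pr4 (chromosome 10, 81497747 to 81500132, minus strand), whose product is found mainly on blood and lymphoid cells, had 983, 928 and 681 reads. Its levels were 32.3, 31.6 and 27.6 CPM (30.5 ± 2.53), with thymus 3 again lowest and the other libraries close together.

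Per kilobase of exon, the scale on which genes can be compared, the receptor genes were close. S1pr1 stood at 10.9 ± 1.31 and S1pr4 at 12.8 ± 1.06 CPM per kilobase. The within-library ratio of S1pr1 to S1pr4 on that scale was 0.791, 0.924 and 0.834, below 1 in 3 of 3 libraries. An exact two-sided sign-flip permutation test over 3 libraries gave p = 0.25, the smallest it can give with this number, so the order is a description.

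Klf2 (chromosome 8, 72319033 to 72321656, plus strand), the activator of S1pr1, was the lowest of the 9 genes in CPM. It had 595, 656 and 471 reads, or 19.6, 22.4 and 19.1 CPM (20.3 ± 1.77). Thymus 2 was highest, while thymus 1 and 3 lay close together. Its 221 bases before the GENCODE start are shown because Klf2 and Cd5 kept a near-constant ratio between libraries, as given further on. The letters searched, on both strands, were CTAAA followed directly by its reverse complement TTTAG, a palindrome of the MEF2 type, GGGCGG and CCACCC, forms bound by SP and KLF factors, and TGTTTA, the core of a FOXO site. Capitals mark matches to the palindrome and to GGGCGG.
Klf2 upstream, chr8:72318812-72319032, plus strand, GRCm38.p6, from RefSeq: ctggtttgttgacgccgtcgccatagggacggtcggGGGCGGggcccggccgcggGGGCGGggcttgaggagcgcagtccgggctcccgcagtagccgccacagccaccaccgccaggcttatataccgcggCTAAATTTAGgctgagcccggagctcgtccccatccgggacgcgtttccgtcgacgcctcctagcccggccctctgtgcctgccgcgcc
The window held 1 match to the palindrome, 89 bases before the start, which 0.0365% of 32851 windows of that length hold. The palindrome was searched in 1 exact spelling and is longer than the other strings. Its share is therefore low by construction and cannot be set against theirs. It held 2 matches to GGGCGG, which 28.7% of windows hold, and 0 to CCACCC and to TGTTTA (25.1% and 11.1% of windows). RefSeq windows were at hand for 5 of the 9 genes. In the first 221 bases of its window Cd5 had no match, Foxo1 and Foxo3 had 2 and 4 matches to GGGCGG, and S1pr4 had 1 match to CCACCC. The rest of the RefSeq windows, near to and past the RefSeq start, held further matches, for this pair CCACCC in Klf2 and CCACCC and TGTTTA in Cd5. A match describes letters only, and the absence of one says nothing about a factor.

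Foxo1 and Foxo3 encode forkhead factors that keep lymphocytes quiescent and that AKT phosphorylates. Foxo1 (chromosome 3, 52268336 to 52353221, plus strand) had 1483, 1635 and 1040 reads, or 48.7, 55.7 and 42.2 CPM (48.9 ± 6.78). Foxo3 (chromosome 10, 42181841 to 42276755, minus strand) had 3057, 3039 and 2469 reads, or 100.5, 103.6 and 100.2 CPM (101 ± 1.91). Foxo1 thus differed between libraries and Foxo3 hardly did. The coefficient of variation of Foxo3, 1.88%, was the same as counting error alone gives at this depth (1.88%), and 4.8% of genes tested had a lower one. That of Foxo1 was 13.9% against a counting error of 2.71%.

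Per kilobase of exon Foxo1 was the lowest of the 9 genes, at 5.64 ± 0.782, and Foxo3 stood at 13.4 ± 0.252 CPM per kilobase. The ratio of Foxo1 to Foxo3 was 0.424, 0.470 and 0.368, below 1 in every library (exact two-sided sign-flip permutation test, p = 0.25, the smallest possible). Foxo1, with 8665 exon bases the longest of the 9 genes, lay above both receptor genes in CPM and below them per kilobase, while Foxo3, with 7571, was the fifth of the 9 on either scale.

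Cd69 (chromosome 6, 129267325 to 129275436, minus strand), the retention gene, had 3723, 3345 and 3316 reads, or 122, 114 and 135 CPM (124 ± 10.3). Here thymus 3 was highest and thymus 2 lowest. Its opponent in the same step, S1pr1, had the reverse order, but with the trend with GC content removed, as described further on, thymus 2 was the highest library for Cd69 as well. The log2 read ratio of S1pr1 to Cd69 was -1.91, -1.61 and -2.19 in thymus 1, 2 and 3, with an SD of 0.291 against a counting error of 0.0538. With the trend with GC content removed that SD was 0.116. The ratio of Klf2 to Cd69 per kilobase was 0.563, 0.691 and 0.501, again highest in thymus 2 and lowest in thymus 3. Its mean was 0.585 ± 0.0971 with all annotated exons as length and 0.152 ± 0.0252 with the longest coding transcript.

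Cd24a (chromosome 10, 43578284 to 43584265, plus strand) was the most abundant of the 9 genes on every scale used. It had 10818, 9240 and 10363 reads, or 356, 315 and 420 CPM (364 ± 53.2), and 97.6% of genes tested had a lower level. Thymus 3 was highest and thymus 2 lowest, as for Cd69. Cd24a also had the largest coefficient of variation of the 9, 14.6%, against 0.993% from counting error, and 72.5% of genes tested had a lower one. Its ratio to S1pr1 in reads, an immature against a mature marker, was 10.9, 8.44 and 14.3, lowest in thymus 2 and highest in thymus 3. Per kilobase that ratio was 13.2 ± 3.47, and it was above 1 in 3 of 3 libraries (exact two-sided sign-flip permutation test, p = 0.25, the smallest possible). With all annotated exons as length, the test gave the same p for Klf2 over Cd69 and for Cd5 over Cd6. It does so whenever all 3 libraries lie on the same side of 1, so these orders are descriptions.

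Cd5 (10717116 to 10739002) and Cd6 (10789341 to 10830058) lie 50338 bases apart on the minus strand of chromosome 19. Cd5 had 5625, 5800 and 4279 reads, or 185, 198 and 174 CPM (185 ± 12.1). Cd6 had 6171, 6407 and 4256 reads, or 203, 218 and 173 CPM (198 ± 23.3). Both were highest in thymus 2 and lowest in thymus 3, Cd6 more so. The read ratio of Cd5 to Cd6 was 0.912, 0.905 and 1.01, so thymus 3 stood apart and thymus 1 and 2 hardly differed.

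**Figure D1:**
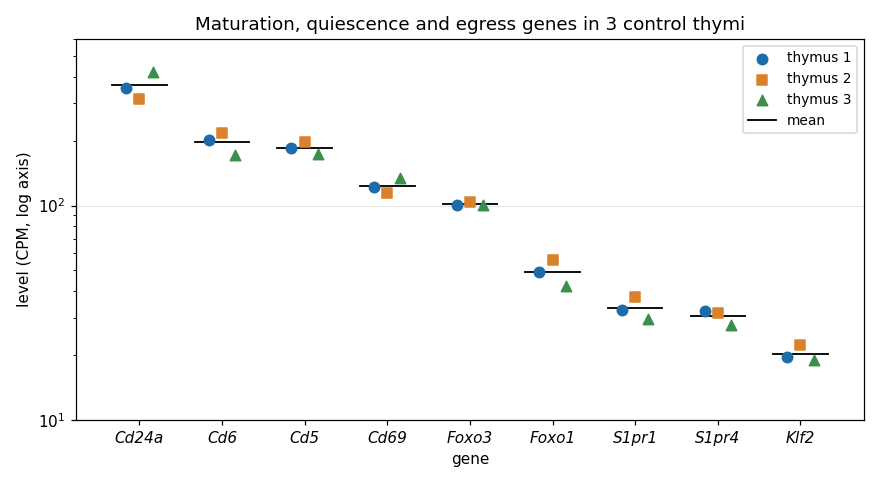
Level of each of the 9 genes (CPM, log axis) in thymus 1, 2 and 3, with the mean of the 3 libraries as a bar; genes are ordered by mean. Levels run from 20.3 CPM for Klf2 to 364 for Cd24a, and thymus 3 is the highest library for Cd24a and Cd69 and the lowest for the others.

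The order of the genes depends on what is taken as their length. With all annotated exons, the order was Cd24a (141 ± 20.6 CPM per kilobase), Cd5 (37.6 ± 2.45), Cd6 (24.8 ± 2.92), Cd69 (19.0 ± 1.58), Foxo3, S1pr4, Klf2 (11.0 ± 0.956), S1pr1 and Foxo1. The ranges over the 3 libraries of the first 4 did not overlap with that of the next gene, nor did those of S1pr1 and Foxo1. Foxo3, S1pr4, Klf2 and S1pr1 formed a run in which each neighbour overlapped the next. Annotated exons of Cd69, Cd6 and Cd5 include retained-intron transcripts and cover 6509, 7968 and 4928 bases, against 1687, 3032 and 2989 bases of their longest coding transcript.

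With the longest coding transcript as length, Cd69 moved from the fourth place to the second, at 73.3 ± 6.11 CPM per kilobase. Cd6 followed at 65.3 ± 7.67 and Cd5 at 62.0 ± 4.04, and neighbours among these genes overlapped. Cd24a stayed first at 200.3 ± 29.3 and Foxo1 last. On this scale the ratio of Cd5 to Cd6 was 0.954 ± 0.0569, whereas with all annotated exons it was 1.52 ± 0.0907, so the direction of that comparison is not fixed by these data. The deposited values are per gene, and the share of reads in the retained introns was not analysed here.

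**Figure D2:**
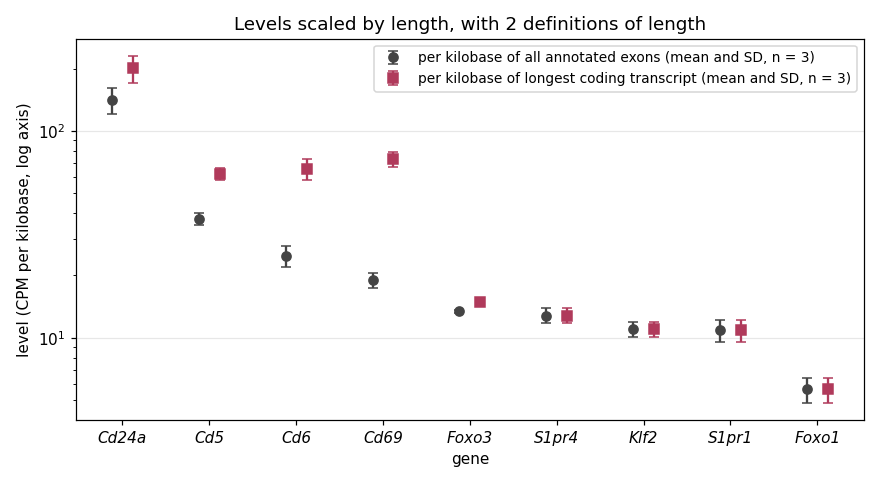
Level per kilobase (log axis) of the 9 genes, as mean and SD over 3 libraries, with length taken as all annotated exons (dark circles) or as the longest coding transcript (red squares). Cd69, Cd5 and Cd6 lie between 19.0 and 37.6 on the former and between 62.0 and 73.3 on the latter, while S1pr1, S1pr4, Klf2 and Foxo1 have the same length in both.

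How far the 3 thymi differed was the next question, since it is the error any tumour would be set against. Of the 9 genes, 8 varied between libraries by more than counting noise (edgeR goodness of fit at a dispersion of 0, Benjamini-Hochberg 0.05 over all genes), against 43.4% of all genes tested. Foxo3 was the exception (adjusted p = 0.485 by the same edgeR test), though with library totals as the scale it too passed (adjusted p = 0.00864, edgeR, with 46.8% of all genes). The count follows depth as well as spread, because abundant genes have little counting noise. Cd24a, the most abundant, had an adjusted p of 5.4e-88 and Klf2, the least abundant, one of 0.0346 (both edgeR goodness of fit). Without thymus 2, S1pr1 and Klf2 no longer passed (adjusted p = 0.0965 and 0.833, edgeR), and without thymus 3 S1pr4 and Klf2 did not (0.806 and 0.0729).

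A further test set each gene against the trend of genes of like abundance. The edgeR quasi-likelihood test called 0 of the 9 more variable than the trend, against 0.0604% of all genes tested (10 genes, Benjamini-Hochberg 0.05, one-sided). At an unadjusted p under 0.05 it also had 0 of the 9, against 4.42% of all genes tested. Again 0 were called by the edgeR goodness of fit at the trended dispersion (0.737% of all genes tested) or as DESeq2 dispersion outliers (0.489%). With shares this small over all genes, counts of 0 among 9 say little about the members. The lowest unadjusted quasi-likelihood p-values in edgeR were 0.0740 for Cd24a and 0.0873 for Foxo1. Coefficients of variation ran from 1.88% to 14.6%, and 5 of the 9 lay below the median of all genes tested, 9.06%.

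Of the 9 genes 7 were lowest in thymus 3, against 39.7% of all genes tested. S1pr1, Klf2, Foxo1, Foxo3, Cd5 and Cd6 were highest in thymus 2 and lowest in thymus 3, which is 6 of 9 genes against 25.8% of all genes tested. Cd24a and Cd69 had the opposite order, 2 of 9 genes against 25.7%. S1pr4 was lowest in thymus 3 and highest in thymus 1. Such a pair of opposite orders is thus common in these libraries, and the count over 9 genes carries no test. In log2 CPM, thymus 3 minus thymus 2 was -0.40 for Foxo1, -0.34 for S1pr1 and -0.34 for Cd6. It was -0.23 for Klf2, -0.20 for S1pr4, -0.19 for Cd5 and -0.049 for Foxo3. For Cd24a it was 0.42 and for Cd69 0.24. The median of the 9 was -0.20, and that of all genes tested -0.012.

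The GC content of the transcripts moved with these values. Across 16522 genes, which are not independent replicates, GC content and the deviation from a gene's mean over the libraries had Spearman correlations of -0.157, 0.408 and -0.288 for thymus 1, 2 and 3. It was taken from the longest annotated transcript of each gene, coding or not. By that measure Cd69 and Cd24a have the lowest GC content of the 9 genes, 35.9% and 43.0%, and Klf2 and S1pr4 the highest, 61.6% and 59.3%. After removal of the trend with GC content per library, the difference was -0.088 for Cd69 and 0.041 for Foxo3, both with the sign turned. It was -0.085 for Klf2, -0.067 for Cd5 and -0.061 for S1pr4. Foxo1 at -0.38, Cd6 at -0.34, S1pr1 at -0.32 and Cd24a at 0.29 kept most of their difference. For Cd6 the GC content used was 47.6%, against 58% in its coding sequence, and for Cd69 35.9% against 45.2%. How far the values with the trend removed depend on the transcript taken was not tested. With the trend removed, 5 of the 9 genes were highest in thymus 2 and lowest in thymus 3, against 23.3% of genes tested, and Cd24a and Foxo3 had the opposite order, against 25.4%.

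**Figure D3:**
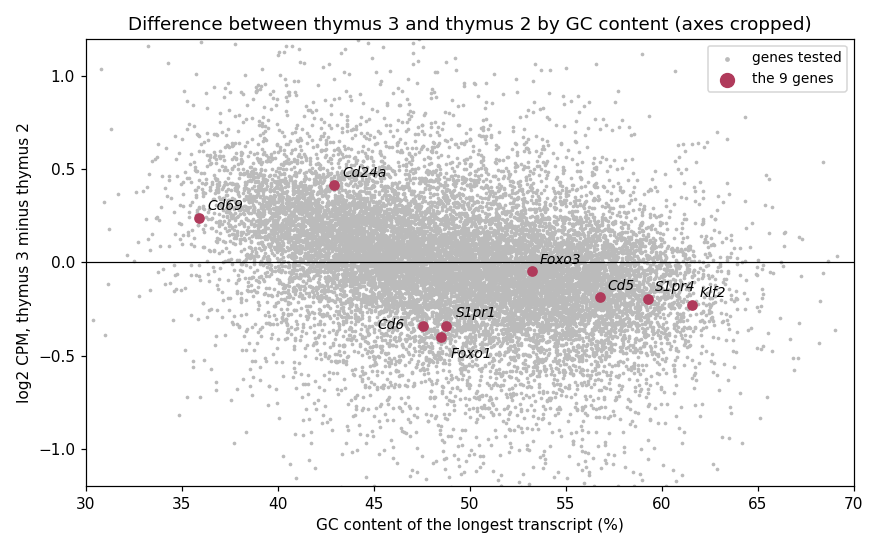
Difference in log2 CPM between thymus 3 and thymus 2 against the GC content of the longest transcript, for the genes tested (grey, of which 16372 of 16522 fall inside the axes) and the 9 genes (red). The grey cloud falls from left to right; Cd69 lies inside it at 35.9% GC, while Foxo1, S1pr1 and Cd6 lie at its lower side near 48%.

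**Figure D4:**
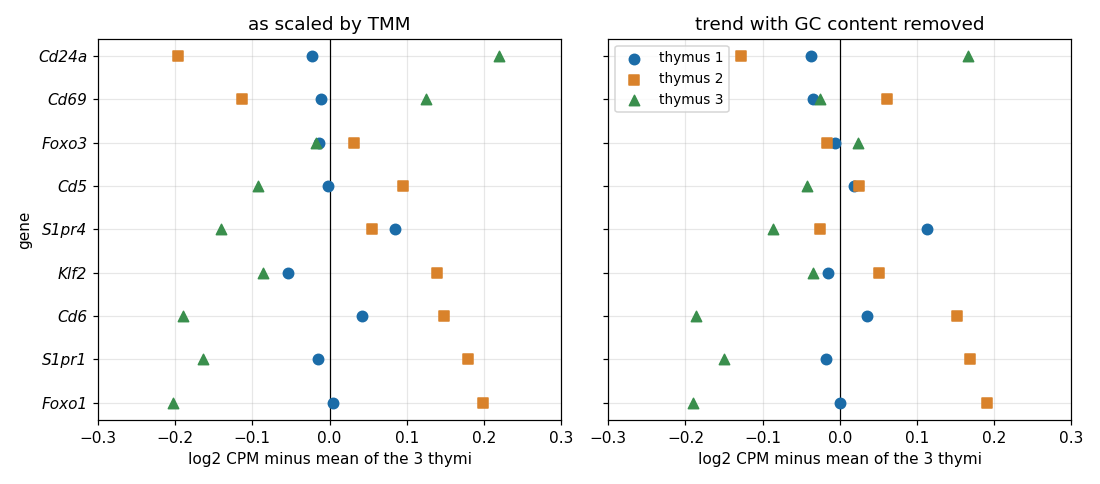
Deviation of each library from the mean of the 3 thymi (log2 CPM) for the 9 genes, as scaled by TMM (left) and with the trend with GC content removed (right). Thymus 2 and 3 lie well apart for Foxo1, S1pr1, Cd6 and Cd24a in both panels, while for Cd69, Cd5, Klf2 and S1pr4 they draw nearer on the right. For Foxo3 they lie close together in both panels.

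Markers of other cells and states differed between the same libraries. Of all genes tested, 39.7% were lowest and 37.9% highest in thymus 3. Of 9 endothelial genes, a cell type that also expresses S1pr1 and Klf2, 6 were lowest in thymus 3, with a summed level of 129, 143 and 118 CPM in thymus 1, 2 and 3. Pecam1 (103 ± 10.6) and Egfl7 (8.20 ± 1.10) led that list, and 0 of its genes lacked reads. Pecam1, at 102, 113 and 92.2 CPM, made up most of the sum. Of the 9 genes 2 were highest in thymus 3, among them Egfl7, at 6.94, 8.73 and 8.93 CPM. All 7 B cell genes were lowest in thymus 3, with a sum of 1332, 1321 and 1277 CPM, led by Ighm (1215 ± 15.3) and Cd79b (28.4, 27.4 and 22.8). B cells also express Cd24a, which was highest in thymus 3. Red cell precursors express Cd24a as well, and the 7 erythroid genes summed to 1025, 47.2 and 224 CPM, highest in thymus 1, led by Hbb-bs (663, 29.7 and 146) and Hba-a1 (139, 6.00 and 27.2), with Slc4a1 below 1 CPM in every library. Their part in the levels of the 9 genes was not tested.

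Cycling and stress genes were high in thymus 3. All 8 cell cycle genes were highest there, against 37.9% of all genes tested. They summed to 2698, 2545 and 3200 CPM, led by Mki67 (930.2 ± 106) and Top2a (681 ± 75.8). Heat shock genes, 8 in all, had the order of Cd24a without exception (25.7% of all genes tested). They summed to 1898, 1306 and 2437 CPM, led by Hspa8 (827 ± 173) and Hsp90aa1 (428 ± 219). Of 9 double-positive genes 4 had the order of Cd24a, and 0 were lowest in thymus 3 (25.7% and 39.7% of all genes tested). Genes of macrophages and dendritic cells, 10 in all, had their lowest value in thymus 3 (39.7% of all genes tested). They were led by Lyz2 (556 ± 114) and C1qc (125 ± 5.36), with a sum of 1216, 997 and 907 CPM. Neutrophil genes summed to 30.2, 28.6 and 50.9 CPM, with S100a9 (10.9 ± 6.44) and Mmp9 (10.5 ± 1.34) the most abundant. Of the 7 neutrophil genes 5 were highest and 2 lowest in thymus 3 (37.9% and 39.7% of all genes tested). Mmp9, at 10.2, 12.0 and 9.33 CPM, was among those lowest there. Innate-like genes, led by Trdc (129 ± 4.60) and Gzma (95.5 ± 23.2), summed to 249.8, 229 and 276 CPM, with 3 of the 6 tested highest and 3 lowest in thymus 3. Those of thymic epithelium, led by Prss16 (906 ± 51.8) and Ccl25 (684 ± 62.6), summed to 2046, 2076 and 2207 CPM, although 5 of the 8 were lowest in thymus 3 and their median log2 difference between thymus 3 and 2 was -0.16. Mesenchymal genes, led by Dcn (98.3 ± 16.7) and Col3a1 (24.6 ± 2.62), summed to 155, 129.8 and 160.0 CPM. Dcn, at 107.7, 79.1 and 108.2 CPM, made up most of that sum. Of the 6 mesenchymal genes 3 were lowest and 3 highest in thymus 3 (39.7% and 37.9% of all genes tested). Whether these cells or states had a part in the order of the 9 genes was not tested.

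Ratios taken within a library are free of the scaling between libraries and show which of the 9 genes kept step. Of 36 pairs, 4 had a ratio whose SD over the 3 libraries did not exceed its counting error. That error is larger for genes with fewer reads, so pairs with such genes pass more easily. Foxo3 and Cd5, with an SD of 0.0702, exceeded their counting error of 0.0338, while S1pr1 and Klf2 passed at nearly the same SD. S1pr1 and Foxo1 were the closest, with log2 ratios of -0.58, -0.58 and -0.52 (SD 0.0335, counting error 0.0620). Klf2 and Cd5 followed at -3.24, -3.14 and -3.18 (SD 0.0486, counting error 0.0640). S1pr1 also kept step with Cd6 (SD 0.0489, counting error 0.0517) and with Klf2 (SD 0.0674, counting error 0.0774). Foxo1 and Cd6, with an SD of 0.0447, exceeded their counting error of 0.0441 narrowly. The longest annotated transcripts of S1pr1, Foxo1 and Cd6, coding or not, have a similar GC content, 48.8%, 48.5% and 47.6%. Their coding sequences have 52.5%, 58.2% and 58%, so the match depends on the part taken. With the trend with GC content removed, a comparison added after the data were seen, 3 of these 4 pairs still varied within counting error. S1pr1 and Klf2 no longer did (SD 0.116), while Foxo1 with Cd6 (0.0367), Klf2 with Foxo3 (0.0637) and Klf2 with Cd69 (0.0174, from 0.235) then did.

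As counted, Cd24a and Cd69 kept nearer to each other than to the other genes. Their ratio had an SD of 0.0895, whereas that of Cd24a with each of the other 7 genes had one between 0.233 with Foxo3 and 0.410 with Foxo1. For Cd69 with the other 7 it ran from 0.144 with Foxo3 to 0.320 with Foxo1. That closeness was lost with the trend with GC content removed, where the SD between them was 0.191, and Cd24a lay nearer to Foxo3 (0.129) and Cd69 nearer to Klf2 and Cd5 (0.0174 and 0.0471). The 3 libraries, their depth and their trend with GC content are common to all 36 ratios, so these spreads describe the libraries and carry no test.

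**Figure D5:**
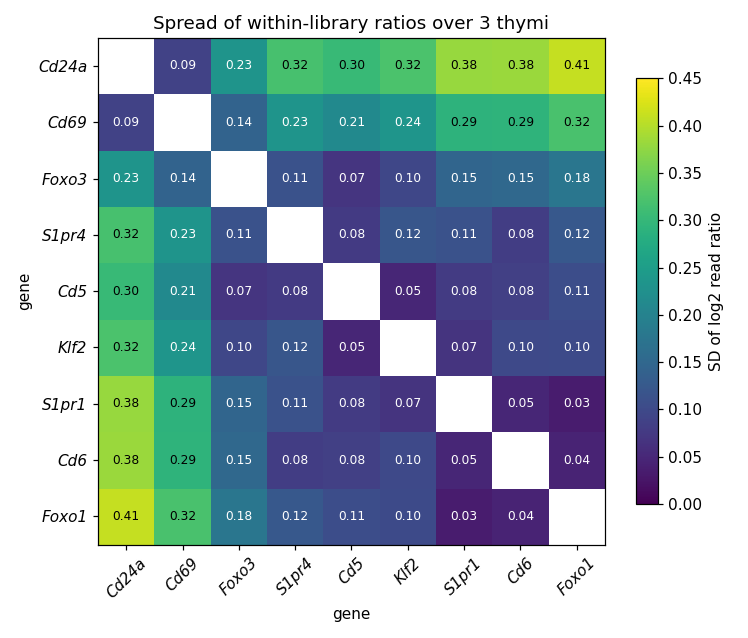
SD over the 3 thymi of the log2 read ratio for each pair of the 9 genes; rows and columns are genes, and colour and printed value give the SD. S1pr1, Cd6 and Foxo1 form a block at 0.03 to 0.05, and the Cd24a row holds the largest values, up to 0.41 with Foxo1.

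Other genes of the same pathways were taken from fixed lists, and the edgeR quasi-likelihood test called 0 of the 93 tested genes of 98 more variable than the trend, with 3 at an unadjusted p under 0.05 (0.0604% and 4.42% of all genes tested). Over these lists 65 of the 93 varied beyond counting noise, against 43.4% of all genes tested. That count follows depth as well as spread. The first list holds 18 genes around sphingosine-1-phosphate, which make it, break it down, carry it out of cells or act in its signal. Of these, 17 were tested and 11 varied beyond counting noise (43.4% of all genes tested). Coro1a (1167 ± 23.5 CPM), an actin regulator needed for T cell exit from the thymus, led them, followed by the receptor kinase gene Grk2 (579.5 ± 10.8), the G protein gene Gnai2 (496 ± 38.1) and the GTPase gene Rac2 (412 ± 45.2). The lyase gene Sgpl1, whose product keeps sphingosine-1-phosphate low inside the thymus, stood at 279.9 ± 6.93 CPM. Among the other receptor genes S1pr3 stood at 17.5 ± 3.58 and S1pr2 at 16.1 ± 1.07 CPM, and S1pr5 had 10, 10 and 2 reads, below 1 CPM in every library. The transporter gene Spns2 stood at 4.99 ± 0.585 CPM. Per kilobase, S1pr3 (3.91 ± 0.803) and S1pr2 (2.02 ± 0.135) lay below S1pr1 and S1pr4. Sgpl1, Spns2, S1pr2 and S1pr3 were named after their values were seen.

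Of 13 further genes of the KLF family 10 were tested and 3 varied beyond counting noise (43.4% of all genes tested). Klf3 (254 ± 5.72 CPM), Klf13 (243 ± 25.6), Klf7 (120.2 ± 6.07) and Klf6 (108 ± 2.68) led. All of these exceeded Klf2 in CPM and, per kilobase, at 22.6 ± 0.509, 32.2 ± 3.39, 14.8 ± 0.746 and 24.5 ± 0.610, in their means too. Klf5, Klf12 and Klf1, the last an erythroid factor gene, lay below 1 CPM in every library. Klf13, like Klf2, was highest in thymus 2 and lowest in thymus 3, at 236, 271 and 221 CPM.

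Of 13 genes that act with or upstream of the FOXO factors, 12 were tested. Of these, 6 varied beyond counting noise (43.4% of all genes tested). Rictor (259 ± 13.8 CPM) and Pdpk1 (242 ± 5.66), which act in the activation of AKT, and Akt1 itself (219.9 ± 14.6) were among the most abundant. Foxo6 had 7, 3 and 5 reads and lay below 1 CPM. Foxo4, at 70.99 ± 2.56 CPM, was named after its value was seen and had 20.4 ± 0.735 CPM per kilobase, more than Foxo3 or Foxo1.

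Genes that FOXO or KLF2 are known to activate in lymphocytes, 14 in all, were tested without exception. Of these, 13 varied beyond counting noise (43.4% of all genes tested). Txnip (609 ± 29.5 CPM), which restrains glucose uptake, Ccng2 (393 ± 30.9), a cyclin gene of resting cells, and Cdkn1b (379.6 ± 31.1), an inhibitor of cyclin-dependent kinases, led. The homing receptor gene Ccr7 was the one with an unadjusted edgeR p under 0.05, at 79.4, 94.6 and 61.9 CPM, the order of S1pr1. Of the 14 genes 5 were highest in thymus 2 and lowest in thymus 3, and 3 had the opposite order, against 25.8% and 25.7% of all genes tested.

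Quiescence genes, 14 in all, were tested in full and 10 varied beyond counting noise (43.4% of all genes tested). The antiproliferative genes Btg2 (849 ± 26.6 CPM) and Btg1 (264 ± 12.0), Slfn2 (179 ± 12.7), needed for quiescent T cells, and the retinoblastoma gene Rb1 (153 ± 5.48) led. Of these genes 6 were highest in thymus 2 and lowest in thymus 3 (25.8% of all genes tested) and 0 had the opposite order (25.7%). Selection and maturation genes, also 14, had 12 that varied beyond counting noise, again against 43.4% of all genes tested. They were led by Cd52 (428 ± 16.1), Itm2a (307 ± 12.4), Cd53 (226 ± 24.7) and Ms4a6b (148 ± 12.9). Here 6 had the order of S1pr1 and 0 the opposite one, against the same shares of 25.8% and 25.7%. Itgae, an integrin gene, was the one with an unadjusted edgeR p under 0.05, at 19.8, 24.3 and 15.8 CPM. The median difference of thymus 3 from thymus 2 in log2 CPM was -0.092 for the quiescence list and -0.16 for the maturation list.

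Ligands and partners of CD5, CD6, CD24 and CD69 made up the last list, with 12 of 12 tested. Of these, 10 varied beyond counting noise (43.4% of all genes tested). The ubiquitin ligase gene Cbl (1397 ± 55.6 CPM) led, with the adaptor gene Lcp2 (299 ± 20.9), the galectin gene Lgals1 (269.6 ± 52.5) and the phosphatase gene Ptpn6 (228 ± 15.2). Lgals1 was the one with an unadjusted edgeR p under 0.05, at 245, 234 and 330 CPM, the order of Cd24a and Cd69. Selp, which encodes P-selectin, lay below 1 CPM in every library. Alcam, the ligand of CD6, was named after its value was seen and stood at 44.9 ± 5.07 CPM.

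Among 98 genes of the pathway lists, the nearest to each of the 9 was taken by Euclidean distance in log2 CPM per kilobase over the 3 libraries. Foxo3 lay nearest to Akt2, with a distance of 0.0379, and Cd69 to Csnk2a1, at 0.0743. Foxo1 lay nearest to Tsc2, at 0.120, and Cd5 to Gna13, at 0.126. S1pr4 was closest to Sesn3 (0.144), Cd6 to Pik3cd (0.205), Cd24a to Cd53 (0.278), and Klf2 and S1pr1 both to Gadd45a (0.185 and 0.231). The measure weighs the level as well as the order of the libraries, over 3 libraries of 1 group.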

How the data were processed

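RNA of 3 control thymi was sequenced after preparation with the TruSeq Stranded mRNA kit, per the labels' protocols. The authors deposited raw read counts per gene for either strand, the gene's strand and the reverse strand. The submitters' processing notes name STAR 2.5.3a, DESeq2 and GRCm38. Which annotation release was used is not given in the sources used here. All values here rest on the reverse-strand counts. Multimapping reads, 13.95% to 15.55% of reads, and the other summary lines entered no library size. Of 52636 identifiers 52489 matched GENCODE M21, as did all 9 genes.

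The tools were edgeR 4.0.16 and DESeq2 1.42.0, run under R 4.3.3 (filter: minimum count 10, total 15; TMM). With 1 group no contrast exists. Variability was tested with an intercept-only robust quasi-likelihood fit, whose dispersion over the trended prior (5.24 prior degrees of freedom) was referred to the F distribution, and by goodness of fit at a dispersion of 0. The former was also run on simulated counts with larger changes in 1 library than any member shows. The latter was run on simulated counts with counting noise alone. These runs say nothing about changes as small as those of the members. Log2 CPM used a prior count of 2, and the trend with GC content of the longest annotated transcript was removed by lowess (span 0.3). Since the labels name no animal per library, p-values speak only of how far these libraries differ, and that spread could be technical. A level of 3 counts lay at 0.0986 to 0.122 CPM.

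The 9 genes and the lists were chosen with earlier results of these data known. Named genes are the 9, the 4 most abundant of each pathway list and its genes below 1 CPM, the 2 most abundant of each cell or state list, the nearest genes, overlapping genes and those said to be named after their values were seen, to which Ccr7, Itgae and Lgals1 belong. Values of a few genes under this rule are not reported here. Alternatives were the unstranded counts, other scaling, filter, prior, test and length, and each library left out.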

Additional observations from a re-analysis of the deposited data

How the results depend on the processing

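With 3 libraries of 1 group, no library could be tested for standing apart, and no contrast was made. No paired analysis was possible because there is 1 group. The count of 0 of 9 genes above the variability trend was 0 under every alternative run. The count of 8 that varied beyond counting noise was 9 with library totals (46.8% of all genes), 7 with no filter (22.1%), 8 with the unstranded counts and with DESeq2 size factors (41.7% and 43.4%), and 6 to 8 with a library left out (22.3% to 39.7%). With library totals the difference of thymus 3 from thymus 2 was -0.13 for Foxo3, from -0.049. Levels moved by more than 1 SD for Foxo3, whose SD is small, to 103.6 CPM with the unstranded counts and to between 98.97 and 103.5 with a library left out. With the longest coding transcript as length, the levels per kilobase were 73.3 for Cd69, 14.8 for Foxo3, 200.3 for Cd24a, 62.0 for Cd5 and 65.3 for Cd6. The log2 ratio became -0.069 for Cd5 over Cd6, from 0.60, -2.73 for Klf2 over Cd69, from -0.79, and 4.20 for Cd24a over S1pr1, from 3.69. These follow from the shorter length. With the trend with GC content removed, the difference of thymus 3 from thymus 2 turned to -0.088 for Cd69 and 0.041 for Foxo3; the cause was not tested.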
